A study of Drosophila melanogaster with 4 samples.

Results

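White (w), scarlet (st), brown (bw), cinnabar (cn) and vermilion (v) are 5 classical eye pigment genes of Drosophila melanogaster, and they are described here in embryos that lack the 8-miR cluster and in w1118 embryos. They are 5 of 13059 genes named on the array, and all 5 were among the 9917 genes that were measured well enough to be tested. The genes were chosen by their annotation IDs (CG2759 for w) and with their ratios of null over w1118 already known, in particular the low ratio of w. The ratios of the 5 genes are therefore given as a description, with no test. Together they had 8 probes on the array: 2 for w, 1 for st, 3 for bw, 1 for cn and 1 for v. All 8 probes passed the filter on dim signals.

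Total RNA of whole embryos was compared on 4 two-colour arrays, each holding 1 extract of 8-miR cluster null embryos and 1 extract of w1118 embryos. Both genotypes carry the w1118 genetic background per the labels, and the w1118 embryos are called wild type there. Eggs were laid over 2 h and kept for 6 h at 25 °C, so the embryos were 6 to 8 h old. Replicates are 3 independent isolations per genotype according to the design text. A further array repeated replicate 1 with exchanged dyes. The null RNA carried Cy3 and the w1118 RNA Cy5 on 3 arrays, and the reverse on the dye-swap array of replicate 1. One slide held both arrays of replicate 1, and the other slide held replicates 2 and 3. Titles and source names give the mutant as the 8-miR cluster null, a genotype field gives a miR-8 cluster null, and a treatment field speaks of ectopic mir-3; the name used here follows the titles. Which genotype a channel held was taken from the dyes that the labels state, and no other measurement checks it.

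Drosophila eyes owe their colour to brown ommochromes and red drosopterins, which are pteridines. White is an ABC transporter subunit of the ABCG family that sits in the membrane of pigment granules: paired with Scarlet it carries ommochrome precursors, and paired with Brown it carries pteridine precursors. Vermilion and Cinnabar are enzymes of the path that turns tryptophan into 3-hydroxykynurenine, the ommochrome precursor. The w1118 allele is a partial deletion of w that leaves the eye white, and the same genes also act outside the eye, for example in the Malpighian tubules.

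On the 4 arrays, between 58.0% and 65.8% of gene spots were well above background in the null channel and between 56.7% and 65.5% in the w1118 channel. Ratios of kept probes correlated between arrays at 0.940 to 0.957 among the 3 arrays of one dye orientation and at 0.823 to 0.882 with the dye-swap array. The embryo patterning markers en, wg, eve, ftz, Ubx, Kr, twi, tin and Mef2 were above background on every array in both genotypes (9 of 9), as were the nervous system markers elav, repo and pros (3 of 3). Of 12 adult eye genes, 5 were above background on every array in each genotype, but not the same 5. Rh6 was so in the null only and ninaE in w1118 only. On no array were ninaC, Rh3, trp, Arr1, inaD and trpl above background. The summed signal of the adult eye list was 1737 to 2037 in the null and 1732 to 1978 in w1118, so the ranges overlapped. Of its 6 tested genes, 1 rose and 2 fell, against 27.7% and 26.1% of all genes. Within that list Rh4 rose at 0.54 ± 0.10, and chp and ninaE fell at -0.31 ± 0.03 and -0.29 ± 0.21 (SD, n = 3; limma, adjusted p = 0.000334, 0.00162 and 0.0219).

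The w gene had the largest ratio of the 5. It is represented by probe A_09_P010031 (transcript CG2759-RA), the kept w probe with the highest mean signal, which has 1 spot on each array. After subtraction of the local background, the null spot read 28.5, 31 and 27 in replicates 1, 2 and 3 and, for the exchanged dyes, 52.5. The w1118 spot read 562.5, 563 and 608 in the same replicates and 354 on the dye-swap array. Every null value was below every w1118 value, though how many of all genes are separated in this way was not counted. The null channel was still well above background on 4 of 4 arrays, as was the w1118 channel. On the normalized log2 scale, the level of this probe averaged 6.53 ± 0.08 in the null and 9.17 ± 0.31 in w1118 (SD, n = 3). The log2 ratio of null over w1118 was -2.38, -2.70 and -2.85 in replicates 1, 2 and 3 and -2.35 on the dye-swap array, and its mean was -2.64 ± 0.25 (SD, n = 3). Signal was thus 6.23-fold lower in the null. The RNA labelled w1118 gave clear w signal although w1118 is itself a w allele, and both genotypes carry the w1118 background label, so the difference between them is not one that the labels name. They give no further w allele or transgene for either genotype, and where the probes lie relative to the deleted part of w was not analysed here, so these probes do not check the w1118 label. Exchanging the dyes on replicate 1 left the ratio of w almost where it was, and all 4 arrays had one sign. The slide with replicate 1 gave -2.36 and the slide with replicates 2 and 3 gave -2.78. In whole embryos, fewer cells of a type and less RNA per cell cannot be told apart.

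The second w probe, A_09_P046191, matches the same transcript and also read lower in the null on every array. Its log2 ratio was -1.48, -1.53 and -1.28 in replicates 1, 2 and 3 and -1.54 on the dye-swap array, with a mean of -1.44 ± 0.14 (SD, n = 3). This probe was well above background in the null on 1 of 4 arrays, the dye-swap array, and in w1118 on 4 of 4. The raw null spot read 41, 32.5 and 32.5 in replicates 1, 2 and 3 over local backgrounds of 26, 19 and 15. The raw w1118 spot read 248, 201.5 and 176.5 over local backgrounds of 53, 44 and 42. On every array the null signal lay far below the w1118 signal, and its excess over background was small.

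The ratios of the 2 w probes differed by 0.90, 1.17 and 1.58 in replicates 1, 2 and 3 and by 0.81 on the dye-swap array, the second probe being nearer to 0 each time. An offset of 50 was added to both channels, which pulls ratios of dim spots towards 0. With an offset of 0 the probes gave -3.78 and -2.84, and without background subtraction they gave -3.05 and -1.87, so the gap remained. In the scanner's processed signals, which carry no such offset, the 2 probes gave -4.13 ± 0.34 and -4.22 ± 0.33 (SD, n = 3). Those are 17.5-fold and 18.7-fold lower signal in the null. For the second probe the null was well above background on 1 of 4 arrays only, so the size of its fold is uncertain. The gap between the probes was smaller than the spread between replicates there. The size of the w ratio thus depended on how background was treated, while its sign was the same for both probes in every other setting. Settings that change only the filter, the gene summary or the test leave a probe's value as it was. The authors' deposited matrix repeats the processed signals.

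**Figure D1:**
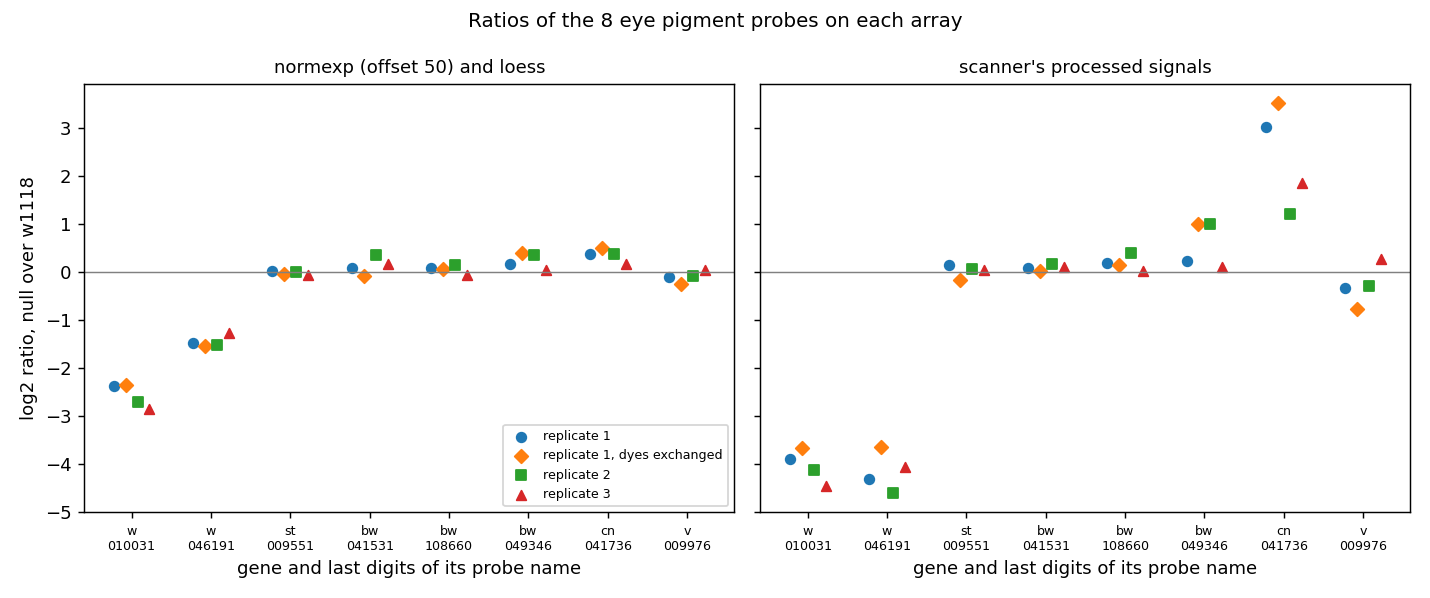
Log2 ratio of null over w1118 for each of the 8 probes on each of the 4 arrays, from background-corrected, loess-normalized signals (left) and from the scanner's processed signals (right); marker shapes stand for arrays. Both w probes lie below 0 on all 4 arrays in both panels, at -2.85 to -2.35 and -1.54 to -1.28 on the left, while the st, bw and v probes stay within 0.4 of 0 on the left.

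**Figure D2:**
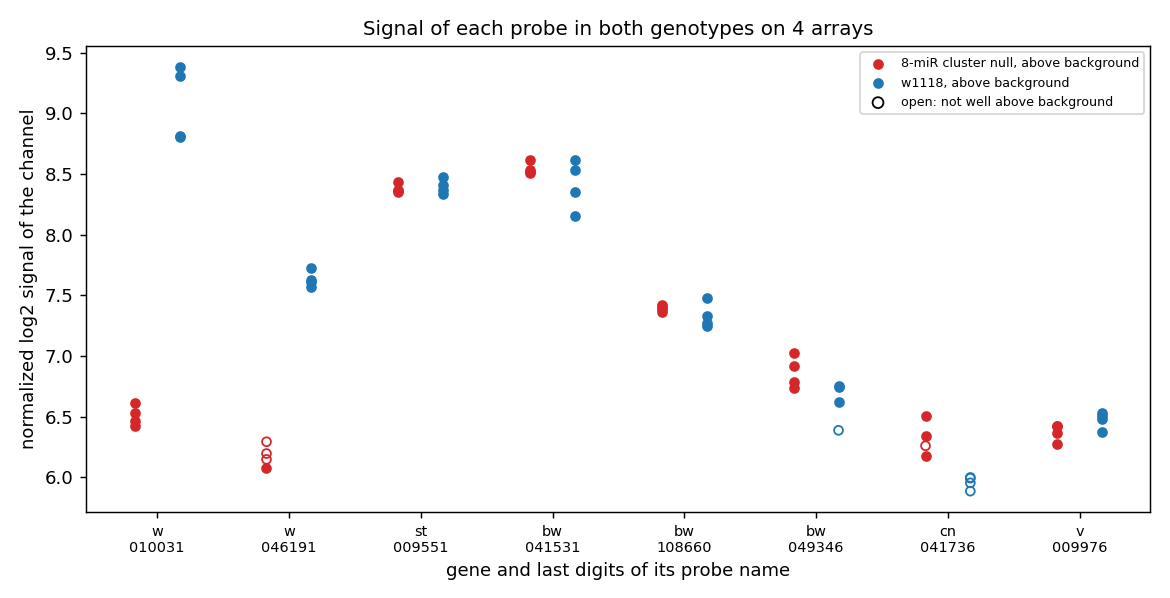
Normalized log2 signal of each probe in null embryos (red, left of each pair) and w1118 embryos (blue, right), 1 point per array; open points were not well above background. The groups of points do not overlap for the 2 w probes and for cn, whose w1118 points are all open. The share of all genes without overlap was not counted. Heights of different probes are not comparable.

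Set among all genes, w lay in the far lower tail. The ratio was lower than that of w in 19 of 9917 genes, and 44 genes had a ratio of larger size in either direction. Its SD over the replicates, 0.25, was larger than that of 96.8% of genes, whose median SD was 0.08. The median ratio of all genes was 0.01. Across the other settings, between 14 genes (offset 0) and 34 genes (each gene as the mean of its kept probes) were lower than w. For cn, 1246 of the 9917 genes were higher in the main setting, against 233 with an offset of 0 and 137 in the processed signals. The w1118 signal of cn was well above background on no array, so its place among the genes is uncertain.

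Scarlet, the partner of White in ommochrome precursor transport, had nearly equal signal in both genotypes. Its probe A_09_P009551 has 2 spots on each array and was above background on 4 of 4 arrays in each genotype. The log2 ratio of st was 0.03, -0.01 and -0.06 in replicates 1, 2 and 3 and -0.04 on the dye-swap array, with a mean of -0.02 ± 0.03 (SD, n = 3). The normalized log2 level averaged 8.37 ± 0.03 in the null and 8.40 ± 0.03 in w1118, and the values of the 2 genotypes overlapped. In the scanner's processed signals the ratio was 0.03 ± 0.04, so its sign was not settled. It had the main sign in 14 of 16 other settings, some of which leave a probe's value as it was.

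Brown, the partner of White in pteridine precursor transport, was read by 3 probes, all with small positive means. Probe A_09_P041531 (transcript CG17632-RA), which represents the gene, gave 0.08, 0.36 and 0.17 in replicates 1, 2 and 3 and -0.08 on the dye-swap array, with a mean of 0.17 ± 0.18 (SD, n = 3). Its normalized log2 level was 8.53 ± 0.04 in the null and 8.36 ± 0.21 in w1118, and the 2 genotypes overlapped. The sign on the dye-swap array was opposite to that in the replicates of the other orientation. A second probe of the same transcript, A_09_P108660, averaged 0.06 ± 0.11, with 0.09, 0.16 and -0.06 in the replicates and 0.06 on the dye-swap array. The probe of transcript CG17632-RB, A_09_P049346, averaged 0.22 ± 0.17, with 0.17, 0.35 and 0.04 in the replicates and 0.40 on the dye-swap array. That probe was above background on 4 of 4 arrays in the null and on 3 of 4 in w1118.

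Vermilion, the tryptophan 2,3-dioxygenase that opens the ommochrome path, was dim in both genotypes. Its probe A_09_P009976 read, after background subtraction, 26.5, 26.75 and 26 in the null in replicates 1, 2 and 3 and 26 on the dye-swap array. In w1118 it read 45.75, 36.75 and 26.75 in the replicates and 37 on the dye-swap array. Both channels were above background on 4 of 4 arrays. The log2 ratio of v was -0.11, -0.09 and 0.05 in replicates 1, 2 and 3 and -0.26 on the dye-swap array, with a mean of -0.07 ± 0.12 (SD, n = 3). The normalized levels of the genotypes overlapped, and the mean ratio was smaller than its SD.

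Cinnabar, the kynurenine 3-monooxygenase that acts after Vermilion, read higher in the null on every array, and its normalized levels did not overlap between genotypes. The share of all genes without overlap was not counted, so nothing is read from its absence here. Its probe A_09_P041736 read 25.75, 21 and 16.25 above local background in the null in replicates 1, 2 and 3 and 38.75 on the dye-swap array. In w1118 it read 8, 4.25 and 8 in the replicates and 10.75 on the dye-swap array. The probe was well above background on 3 of 4 arrays in the null (all but replicate 2) and on 0 of 4 in w1118. It thus passed the filter on dim signals through the null alone, where it read higher. The log2 ratio was 0.38, 0.37 and 0.18 in replicates 1, 2 and 3 and 0.51 on the dye-swap array, with a mean of 0.33 ± 0.14 (SD, n = 3). Since w1118 gave no signal well above background, only a bound holds: on the mean over replicates, 1.26-fold higher signal in the null. The mean ratio itself was also 1.26-fold and replicate 3 alone gave 1.13-fold, so the bound is for the mean only. Such a bound sets the mean of the null over all its replicates against the mean, in w1118, of the higher of the probe's own value and the lowest signal called above background on that array. The processed signals gave 2.12 ± 1.05 (SD, n = 3). Over the 12 other settings that can change this probe's value, the ratio ranged from 0.28 to 2.12, with one sign. Among these, the authors' deposited matrix repeats the processed signals. A filter on signal above background in both channels of all arrays drops the probe. The slide with replicate 1 gave 0.45 and the slide with replicates 2 and 3 gave 0.28.

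Ordered by their ratios of null over w1118, the genes ran w, v, st, bw and cn. The means of v and st differed by less than the SD of v, and those of st and bw by slightly more than the SD of bw. The place of cn beside bw is not settled, since cn has only a bound and gave 1.22 with an offset of 0 and 2.12 in the processed signals. At the other end, w lay below v by many times the SD of either. In the fit over all genes (limma, adjusted p under 0.05), 53.8% of the 9917 genes passed, made up of 27.7% higher and 26.1% lower in the null. Among the 5 genes, w passed as lower and cn as higher, and st, bw and v did not pass; as the genes were selected with these ratios known, nothing is read from that count.

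**Figure D3:**
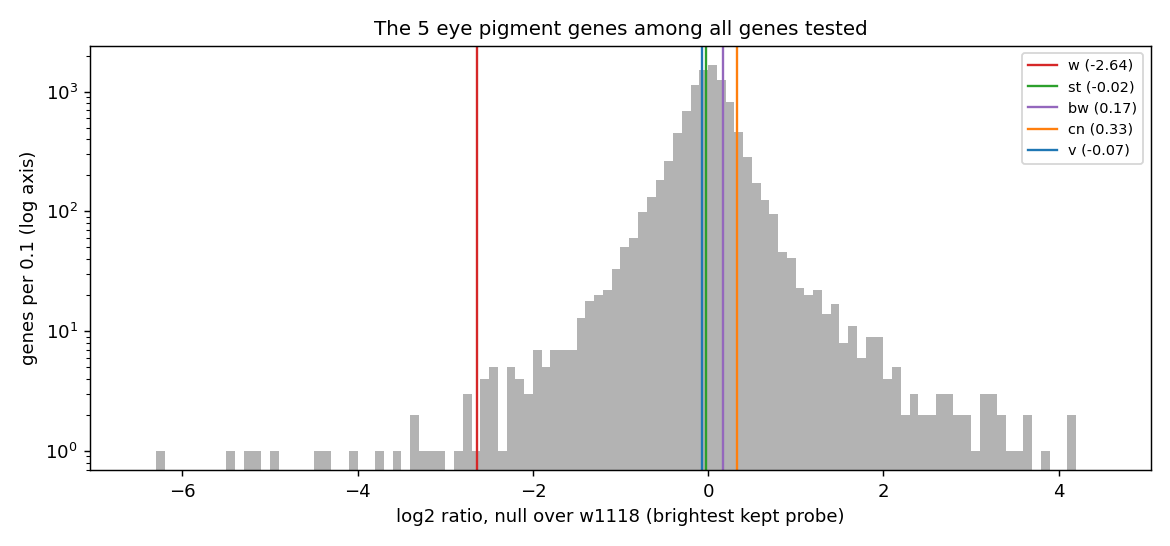
Histogram of the log2 ratio of null over w1118 over the 9917 genes tested (number of genes per 0.1, log axis), with a vertical line for each of the 5 eye pigment genes. The line of w at -2.64 lies in the sparse lower tail, and those of v (-0.07), st (-0.02) and bw (0.17) lie in the bulk of the distribution, as does that of cn at 0.33, for which only a bound holds.

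The other genes of the eye pigment pathways, counted with other ABCG transporters that are relatives of White, showed no common direction. Across 4 lists (ommochrome synthesis, pteridine synthesis, pigment granule trafficking and the other ABCG transporters), 45 genes were on the array and 42 were tested, while cd, se and CG9664 were too dim. Of the 42, 14 rose and 11 fell in the null and 17 did not pass, a called share of 59.5%, against 53.8% over all genes. The median ratio was -0.01, against 0.01 over all genes. Of the 42 genes, 1 was at least 2-fold different in the main setting, CG32091 of the ABCG list. That count takes the probe that stands for each gene. Among the genes named below, KFase (1.22) and cl, the latter only just, were also past 2-fold in the scanner's processed signals. In the main setting another kept probe of car was past 2-fold too. Without replicate 3 the counts were 9 higher and 6 lower. The genes named are up to 4 in each list with the largest ratios among those that passed with one sign in all 3 replicates. To show the other listed subunits of the same complexes, g, cm, or, Pldn, Muted, Snapin, Blos2, Blos3, Dysb, dor and lt were added after their values were seen.

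In ommochrome synthesis, both other enzymes or carriers tested passed, in opposite directions. Over all genes 53.8% passed, and 2 genes are too few to set against that share. KFase, the kynurenine formamidase whose step lies between those of Vermilion and Cinnabar, rose by 0.26 ± 0.05 in the null (SD, n = 3; limma, adjusted p = 0.00362), and by 1.22 in the scanner's processed signals. The ratio of kar (karmoisin) was -0.23 ± 0.08 (limma, adjusted p = 0.00881), a fall that did not pass without replicate 2 (adjusted p = 0.0604) or without replicate 3 (0.0543).

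In pteridine synthesis, 2 of 9 genes rose, 3 fell and 4 did not pass, and the median was -0.03. The called share was 55.6%, near the 53.8% over all genes. Clot (cl), needed for drosopterin synthesis, gave -0.87, -0.85 and -0.98 in replicates 1, 2 and 3 and fell at -0.90 ± 0.07 (SD, n = 3; limma, adjusted p = 2.44e-05). It was above background on every array in both genotypes, and the fall passed in all 16 other settings. Punch (Pu), the GTP cyclohydrolase of the first pteridine step, rose at 0.51 ± 0.11 (limma, adjusted p = 0.000474), and its other kept probe gave 0.26. Purple (pr), the 6-pyruvoyltetrahydropterin synthase of the next step, fell at -0.35 ± 0.25 (limma, adjusted p = 0.0176). The dye-swap array gave pr the opposite sign (0.08), and the fall did not pass with that array alone for replicate 1 (adjusted p = 0.149), with a dye term (0.0741) or without replicate 3 (0.0806). Cinnamon (cin), which serves the molybdenum cofactor of xanthine dehydrogenase, rose at 0.23 ± 0.04 (limma, adjusted p = 0.00549).

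Of 20 genes that build or traffic pigment granules, 6 rose, 5 fell and 9 did not pass, and the median was 0.09. Subunits of AP-3 and of BLOC-1 were called in both directions, while 27.7% of all genes rose and 26.1% fell. Of the AP-3 adaptor subunits, rb rose at 0.32 ± 0.14 (limma, adjusted p = 0.00556; its other probe 0.04) and g at 0.19 ± 0.07, while cm fell at -0.29 ± 0.12 and orange (or) at -0.19 ± 0.10. Of the BLOC-1 subunits, Blos1 fell at -0.84 ± 0.16 (limma, adjusted p = 0.000131) and Blos4 at -0.40 ± 0.08 (adjusted p = 0.000887). Muted also fell, at -0.22 ± 0.02, while Pldn rose at 0.27 ± 0.03 and Snapin at 0.21 ± 0.12. Blos2, Blos3 and Dysb did not pass, at -0.08, 0.17 and -0.01. For Blos4 the dye-swap array gave -0.08 and the other array of replicate 1 gave -0.55. Among HOPS subunits, car rose at 0.54 ± 0.12 (limma, adjusted p = 0.000413), and dor and lt did not pass, at 0.09 and -0.15. The other kept probes of car gave 0.39 and a rise past 2-fold.

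White, Scarlet and Brown belong to the ABCG transporters. Of 11 other tested members of that family 5 rose, 2 fell and 4 did not pass, with a median of -0.02. That is a called share of 63.6%, against 53.8% over all genes. CG32091 gave 1.49, 1.79 and 1.62 in replicates 1, 2 and 3 and 1.27 on the dye-swap array. At 1.60 ± 0.21 it was 3.03-fold higher in the null (SD, n = 3; limma, adjusted p = 1.67e-05), and it passed in all 16 other settings. Atet fell at -0.61 ± 0.04 (limma, adjusted p = 9.12e-05), also in all 16. CG3164 fell at -0.34 ± 0.16 (limma, adjusted p = 0.00643). CG4822 rose at 0.31 ± 0.19 (limma, adjusted p = 0.015), though its dye-swap array read -0.00 and the call was lost with that array alone for replicate 1 (adjusted p = 0.0889), with a dye term (0.0545) or without replicate 3 (0.085).

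**Figure D4:**
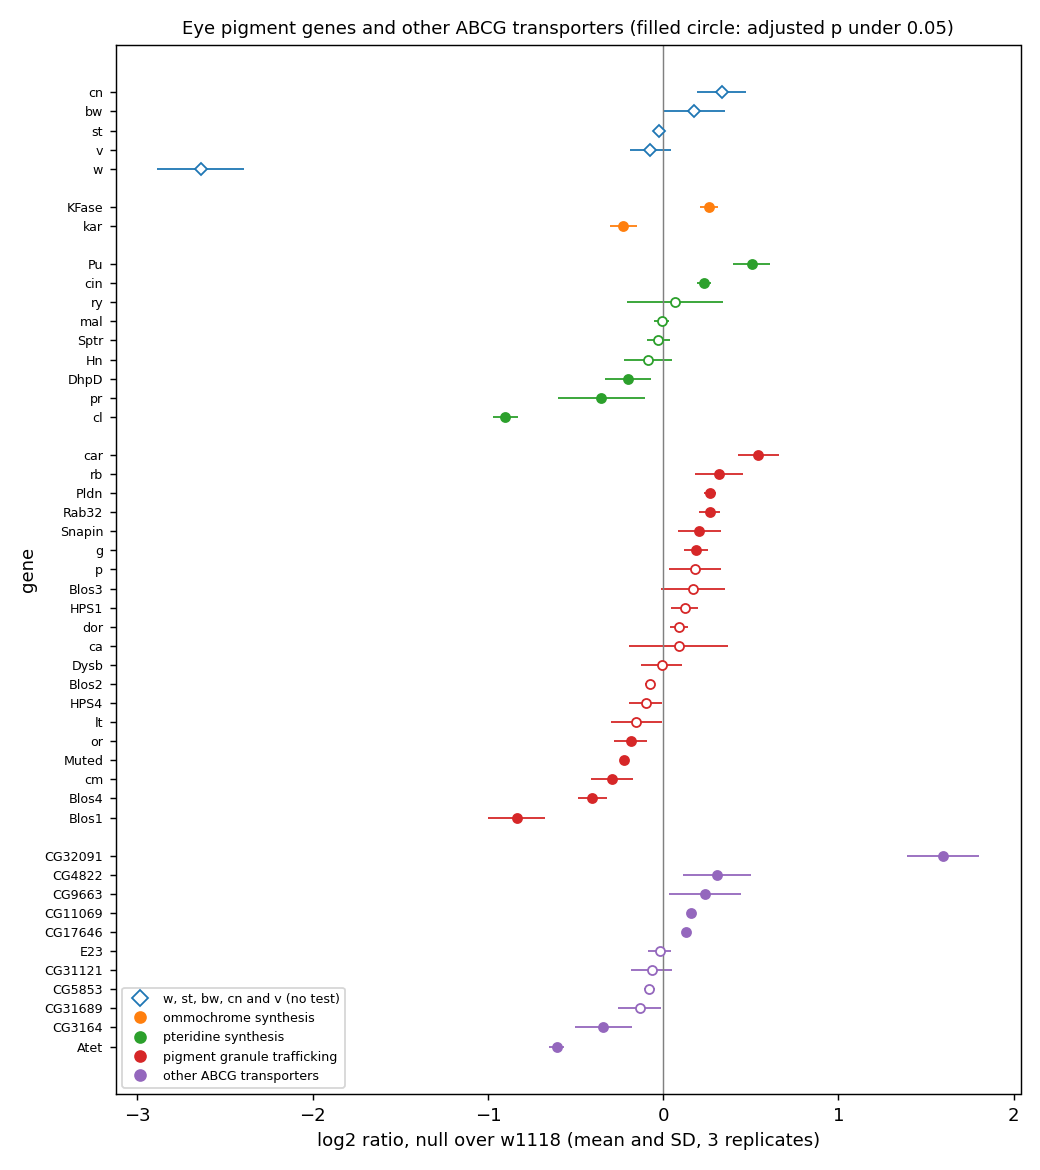
Log2 ratio of null over w1118 (mean and SD over 3 replicates) of the 5 eye pigment genes (diamonds, no test). The 42 other tested genes of the pathway and ABCG lists are shown by list. Filled circles passed at an adjusted p under 0.05. Apart from w at -2.64 and CG32091 at 1.60, every gene lies between -0.90 and 0.54.

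The genes beside w on the X chromosome did not share its ratio. Taking the 5 closest tested genes to the left and to the right, 3 of 10 rose, 2 fell and 5 did not pass, against 27.7% and 26.1% of all genes, and 0 of 10 were at least 2-fold different in the main setting. Without replicate 3, 1 of the 10 was called higher. Before w in the gene order of the Release 6 annotation, CG32795 gave 0.20 ± 0.06, kirre, a cell adhesion protein of muscle founder cells, gave -0.30 ± 0.03 (its other kept probes -0.21 and -0.01), and Syx4, a syntaxin, gave 0.23 ± 0.11 (SD, n = 3). These were called higher, lower and higher (limma, adjusted p = 0.0111, 0.00168 and 0.013). The calls of CG32795 and Syx4 were lost without replicate 3 (adjusted p = 0.0939 and 0.067), and that of CG32795 also without replicate 2 (0.062). With the dye-swap array alone for replicate 1 neither passed (0.0775 for CG32795 and 0.0616 for Syx4), and Syx4 read 0.56 on that array, against 0.11 on the other array of replicate 1. Next on that side, crm and CG2712 did not pass, at 0.05 and -0.09. After w, CG14417, CG14419 and CG3588 did not pass, at -0.07, -0.11 and -0.01, and CG3526 rose at 0.57 ± 0.08 (limma, adjusted p = 0.000192). The ratio of CG3526 was 1.02 with an offset of 0 and 1.14 in the processed signals, which is past 2-fold. In the scanner's processed signals CG14417 and CG14419 passed as lower, at -0.88 and -0.42; CG14417 was above background on 0 of 4 arrays in the null. CG14418 was called lower at -0.33 ± 0.11 (limma, adjusted p = 0.00351), with -0.89 on one array of replicate 1 and 0.01 on its dye-swap array, and the call was lost with the dye-swap array alone for replicate 1 (adjusted p = 0.145).

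**Figure D5:**
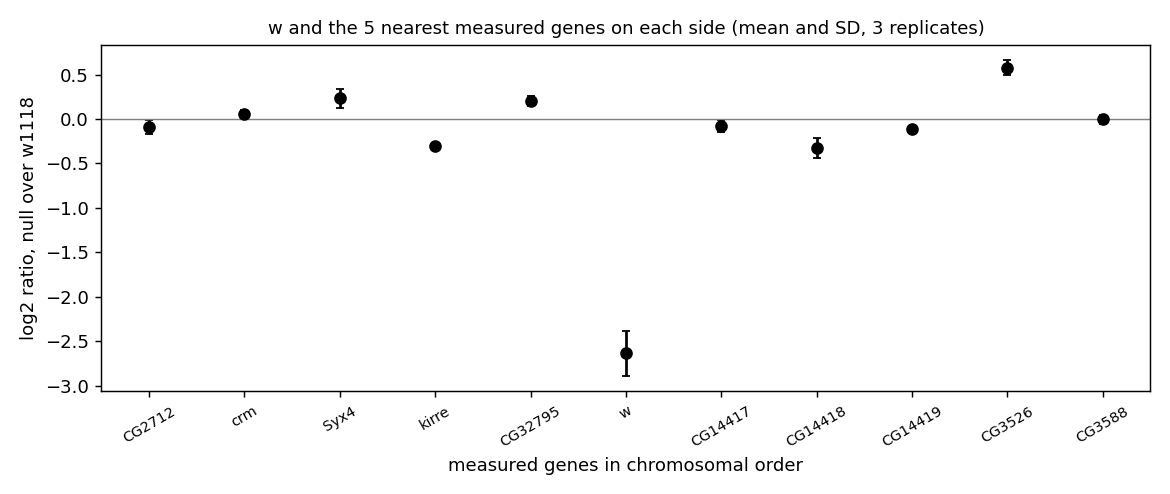
Log2 ratio of null over w1118 (mean and SD over 3 replicates) of w and of the 5 measured genes nearest to it in either direction, in chromosomal order and not to scale. The 10 neighbours lie between -0.33 and 0.57, and w lies at -2.64.

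The 5 genes whose ratios on the 4 arrays lay nearest to those of w were found by Euclidean distance between log2 ratios, which makes them a description of likeness. They were CG2614 (distance 0.26, ratio -2.52 ± 0.23), GILT3 (0.42, -2.49 ± 0.06), CG2150 (0.48, -2.51 ± 0.05), CG17470 (0.49, -2.42 ± 0.04) and LysB (0.51, -2.78 ± 0.06). None of them lies on the X chromosome: CG2614 and CG17470 are on arm 2L, LysB on 3L, and GILT3 and CG2150 on 3R. The other kept probe of CG2614 gave -0.24 and that of CG17470 gave -1.47, so the likeness depends on the probe. LysB is a lysozyme of a tandem family of near-identical genes, and its value is uncertain for that reason.

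Marker genes of other tissues were also read. Over all genes tested, 27.7% rose and 26.1% fell, and the marker lists hold only 5 or 6 genes each. Of 5 follicle cell genes (Vm26Aa, Vm32E, Cp15, Cp18 and Cp36), 3 fell and 1 rose in the null, and their summed signal was 711 to 743 in the null and 1578 to 1671 in w1118. Of 6 genes listed for the Malpighian tubule (ct, byn, Uro, CapaR, ZnT35C and Irk3), 5 were above background on every array in each genotype and Uro never was. Irk3 and ZnT35C, 2 of the 5 tested, rose, at 0.15 ± 0.05 and 0.21 ± 0.12 (SD, n = 3; limma, adjusted p = 0.0322 and 0.0215), and 0 fell. The summed signal of the tubule list was 6456 to 6744 in the null and 5962 to 6231 in w1118, so it was higher in the null on every array. As the RNA came from whole embryos, that sum is not a measure of the tubules alone. Of 5 fat body genes, srp alone was above background on every array in each genotype, and Lsp1alpha, Lsp2 and Fbp1 never were. The srp gene, the only one tested, fell at -0.13 ± 0.03 (limma, adjusted p = 0.0393). The summed signal of the list was 3708 to 3859 in the null and 3856 to 4233 in w1118. That sum rests on 1 gene read clearly in both genotypes. The part of RNA from any of these tissues in the ratios of the 5 genes was not tested.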

How the data were processed

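Arrays were scanned and spots extracted with Agilent Feature Extraction 10.1.1.1, per the file headers. The deposited intensity columns used were the median spot and median local background signals in each channel, not normalized. The scanner software had subtracted background and normalized dyes in the deposited processed intensity columns, and the deposited log10 ratio was Cy5 over Cy3, per the file headers. The authors' matrix held log2 values that ran w1118 over null (slope -1.00 against the processed log2 ratio of null over w1118; column medians -0.137, 0.0707, 0.128 and -0.0411). Its scale and direction were found by that comparison and its centring is not given in the sources used here.

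Signals were corrected with normexp (offset 50) and normalized by loess within each array in limma 3.58.1 under R 4.3.3, with control and outlier spots at weight 0. Mean spot signals had been planned and medians took their place. Ratios were turned to null over w1118 by the labelled dyes, spots of a probe were averaged, and replicate 1 entered as the mean of its 2 arrays, so n is 3. A probe was kept where 1 genotype lay well above background in 2 or more of the 3 replicates, and the kept probe of highest mean signal stood for its gene. Of 32162 probes, 20289 were kept. Genes were tested with lmFit and eBayes against 0, with Benjamini-Hochberg adjustment over 9917 genes at 0.05; the code was tested on simulated data. Names came from a RefSeq table of the Release 6 assembly, which matched 19482 probes to 13059 genes and not the other 12680; since the arrays were designed on an earlier build, that table served for names, arms and gene order. Members and lists were chosen with earlier results of these data known. Named list genes are the up to 4 with the largest ratios among those past the threshold with one sign in all 3 replicates. Further trafficking genes (g, cm, or, Pldn, Muted, Snapin, Blos2, Blos3, Dysb, dor and lt) were added after their values were seen. The number of arrays limits the precision. The 16 alternatives tried are in the closing section.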

Additional observations from a re-analysis of the deposited data

How the results depend on the processing

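Across the 16 alternatives, none of the 14 list genes named by the rule, the called genes beside w or the w probes turned sign. Of genes not called, st (main value -0.02) and CG2712 (-0.09) were at 0.03 and 0.02 in the processed signals, and CG3588 (-0.01) reached 0.02 without replicate 1. The w ratio (main value -2.64) was -3.78 with normexp at offset 0, -3.05 without background subtraction, and -4.13 from both the scanner's processed signals and the authors' matrix; without 1 replicate it ran from -2.78 to -2.53. Replicate 1 taken from its dye-swap array alone gave 1748 genes higher and 1676 lower (main counts 2748 and 2592). It gave 8 and 6 of the pathway and ABCG lists (main 14 and 11), and 1 and 1 of the genes beside w (main 3 and 2). An ordinary test without moderation gave 1067 and 1011 genes, 5 and 3 of the lists, and 1 higher beside w. Processed signals and matrix each gave 4 lower beside w. Without 1 replicate, higher genes ran from 1766 to 3022 and lower genes from 1712 to 2855, lists from 9 to 16 and from 6 to 12, and genes beside w from 1 to 3 and from 2 to 3, with the low ends without replicate 3. Of the 14 named list genes, cl, cin, CG32091 and Atet passed under all 16. The other 10 lost the call in at least the ordinary test. The planned use of mean spot signals was not run. Signal near background limits cn, v and the second w probe, and replicates 2 and 3 exist in 1 dye orientation only.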

Other observations

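The 5 nearest measured genes on each side of st, bw, cn and v were tallied after the values of these genes had been seen. Over all genes, 27.7% rose and 26.1% fell, and most of the counts given here lie near those shares. Beside st, 4 of 10 rose and 2 fell in the null (limma, adjusted p under 0.05), with ratios from -0.86 to 0.66. Beside bw, 1 of 10 rose and 3 fell, and the 2 genes just before it, mi and RabX1, were both called lower, at -0.76 ± 0.13 and -0.76 ± 0.09 (SD, n = 3). Beside cn, 3 of 10 rose and 4 fell, with PolZ1 at 0.95 ± 0.18 the highest of them and Dgat2, an enzyme of triglyceride synthesis, at 0.62 ± 0.02. Beside v, 4 of 10 rose and 2 fell, with CG2145, the gene next after it, at 0.76 ± 0.09 and CG1582 at -0.87 ± 0.20. With the genes beside w, 0 of 50 neighbours were at least 2-fold different in the main setting, while CG3526 beside w was at 1.02 with an offset of 0 and 1.14 in the processed signals. Both bw and cn lie on arm 2R and v on X.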
